A study of Mus musculus with 15 samples.

Results

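The genes described here are 10 mouse genes of heme and iron handling, read across cultures of RAW 264.7 macrophages that had been loaded with silica nanoparticles. They are Hmox1, Slc48a1, Slc40a1, Blvra, Blvrb, Fth1, Ftl1, Tfrc, Slc11a1 and Slc11a2, 10 of the 57186 gene identifiers in the count table. They were chosen by function, but with results from these same libraries already known. Their levels and fold changes are therefore given as a description, without p-values, and counts of them past a threshold are set beside the share of all genes past it. RAW 264.7 is a mouse macrophage line that grows in culture. The 5 groups had 3 libraries each, all collected at 6 h: nontreated controls and cells given SNP100, SNP50, MSNP or HMSNP. SNP100 and SNP50 are nonporous silica particles with nominal diameters of 100 and 50 nm, dosed at 50 and 25 µg/mL. MSNP are mesoporous and HMSNP hollow mesoporous particles, both of 100 nm and both dosed at 200 µg/mL. Each dose was the highest that the study found nontoxic for that particle, so that only MSNP and HMSNP were given at the same dose.

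Macrophages recycle iron from heme. Heme leaves the phagolysosome through the transporter encoded by Slc48a1. Heme oxygenase 1 (Hmox1) opens the ring to release iron, carbon monoxide and biliverdin, and the biliverdin reductase Blvra turns biliverdin into bilirubin. Blvrb encodes another biliverdin reductase, which also reduces flavins. The freed iron is stored in ferritin, a shell of heavy (Fth1) and light (Ftl1) chains, or leaves the cell through ferroportin (Slc40a1). Iron bound to transferrin enters through the transferrin receptor (Tfrc), and the carriers NRAMP1 (Slc11a1) and DMT1 (Slc11a2) move divalent metal out of phagosomes and endosomes into the cytosol.

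Between 29369934 and 42617812 counts were assigned to genes in a library. Levels are CPM, counts scaled to a common library size, after scaling by trimmed mean of M values (TMM), and log2 fold changes come from a negative binomial model of all 15 libraries. A gene is called higher or lower where its adjusted p was under 0.05 over the 19839 genes tested. All 8 macrophage markers listed were detected, with a summed level of 14827 to 19268 CPM in the control, SNP100, SNP50 and HMSNP libraries and of 12920 to 13880 CPM in the MSNP libraries. Most of this sum was Lyz2, and the markers did not move together with MSNP: Cd68 was higher by 0.68 on the log2 scale, while Csf1r, Fcgr1, Itgam and Lyz2 were lower, with log2 fold changes of -0.65, -0.76, -0.46 and -0.39, and the other 3 were not called. Their part in the MSNP results was not tested. The 9 erythroid markers together reached at most 0.378 CPM, and 4 of them, among them Hbb-bs and Ahsp, had no counts in any library. The 8 markers of lymphocytes, epithelium, fibroblasts and endothelium reached at most 0.574 CPM together, with Dcn and Epcam at 0 counts throughout. The library names carry a number that is shared within each group and differs between groups. What it marks is not stated, and anything it stands for cannot be told apart from the treatment. The 4 comparisons with the controls share the same 3 control libraries.

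Control replicate 3 stood apart from the other controls. When genes were binned by summed exon length, its log2 CPM minus the mean of the other 2 had medians running from 0.61 for the shortest bin to -0.60 for the longest. Of the 10 genes, Ftl1, Fth1, Blvrb and Blvra lay 0.72, 0.71, 0.61 and 0.50 higher in that library on the log2 scale. Slc40a1, Tfrc and Hmox1 lay lower in it, with differences of -0.62, -0.38 and -0.33. Slc48a1, Slc11a1 and Slc11a2 differed by 0.09 or less in either direction. Values without this library are given where it changed a call or moved a value most.

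**Figure D1:**
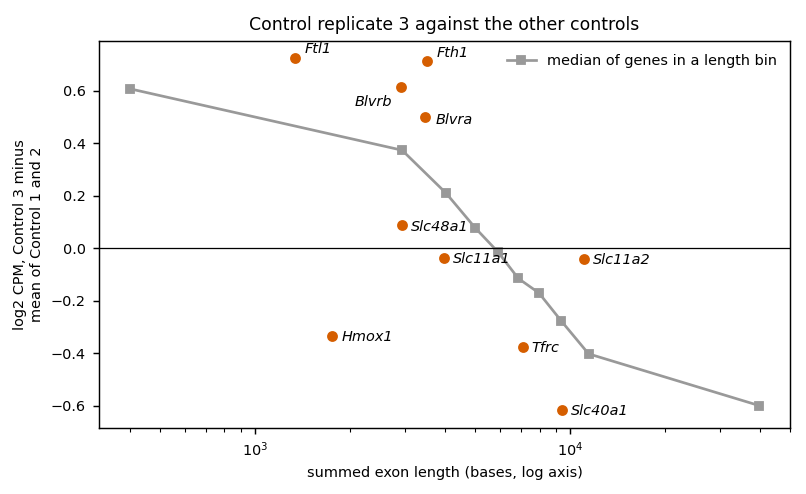
Log2 CPM of Control replicate 3 minus the mean of Control replicates 1 and 2 (vertical axis) against summed exon length in bases (horizontal log axis); orange points are the 10 genes and grey squares the medians of 10 bins of genes by length, placed at the geometric middle of each bin. The grey line falls from 0.61 to -0.60, the 2 ferritin genes and both biliverdin reductases lie at 0.50 or higher, and Hmox1, which falls in the shortest bin, lies at -0.33.

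Hmox1 (chr8:75820241-75827217, plus strand, GRCm39) encodes the inducible heme oxygenase and was called lower than in the controls with all 4 particles. The control libraries held 1537, 1699 and 1283 CPM, a mean of 1506 ± 209.8 (SD, n = 3). With SNP100 the libraries held 555, 616 and 459 CPM, and with SNP50 they held 538, 569 and 471 CPM. Every nonporous library therefore lay below every control, and the 2 nonporous groups overlapped each other. The fitted log2 fold change was -1.47 ± 0.17 (SE) for SNP100 and -1.52 ± 0.17 for SNP50, which is 36.1% and 34.9% of the control level. These are RNA levels over whole cultures, in which fewer expressing cells and less RNA per cell cannot be told apart. The log2 fold changes were -1.58 and -1.63 without Control replicate 3.

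The mesoporous particles left Hmox1 at intermediate levels. The MSNP libraries held 969, 948 and 896 CPM, a log2 fold change of -0.68 ± 0.17 against the controls. The HMSNP libraries held 615, 1109 and 811 CPM, a log2 fold change of -0.83 ± 0.17. The MSNP value was -0.78 and the HMSNP value -0.94 without Control replicate 3. All 6 libraries lay below the lowest control, but the HMSNP libraries spanned the whole MSNP range, and their lowest, 615 CPM, lay just under the highest SNP100 library. The order of group means was thus Control, MSNP, HMSNP, SNP100 and SNP50, in which only the controls were separated from their neighbour by more than the spread of the libraries. An offset that removed each library's trend with gene length gave -0.55 for MSNP and -0.68 for HMSNP, neither of them past the threshold. With Control replicate 3 left out as well, the same offset called Hmox1 lower with both. The HMSNP call was also lost without HMSNP replicate 1 (-0.63) or HMSNP replicate 3 (-0.81). It was lost too in a fit to only the 6 libraries of this comparison, which called 0.439% of all genes.

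The letters around the Hmox1 start site are shown because this gene had one of 2 promoter matches among the members. In a 300-base window at the annotated start, most of it upstream, the E-box CACGTG, a palindrome read by basic helix-loop-helix factors, began 38 bases upstream (chr8:75820191-75820220, GRCm39, plus strand, E-box in capitals).
Hmox1 E-box: ctgggcggccacCACGTGacccgcgtactt
CACGTG stood in 7.83% of 21691 such windows of protein-coding genes. The antioxidant response element core TGACNNNGC, searched on both strands, stood in 12.5%, and TGACTCA, the AP-1 site, in 4.7%. A TGACTCA followed by GC counts as both. Neither was in the Hmox1 window, which covers the promoter only.

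Slc48a1 (chr15:97676401-97690573, plus strand), which carries heme out of the phagolysosome, was called lower with the nonporous particles and not with the mesoporous ones. The controls held 187, 194 and 202 CPM. The SNP100 libraries held 121, 127 and 113 CPM and the SNP50 libraries 118, 122 and 117 CPM, all below every control, with log2 fold changes of -0.69 ± 0.09 and -0.71 ± 0.09 (SE). The MSNP libraries, at 202, 197 and 193 CPM, and the HMSNP libraries, at 165, 219 and 194 CPM, overlapped the controls. Their log2 fold changes were 0.02 ± 0.09 and -0.01 ± 0.09. On the opposite strand Slc48a1 overlaps Hdac7, which reached at most 0.733 CPM in any library.

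**Figure D2:**
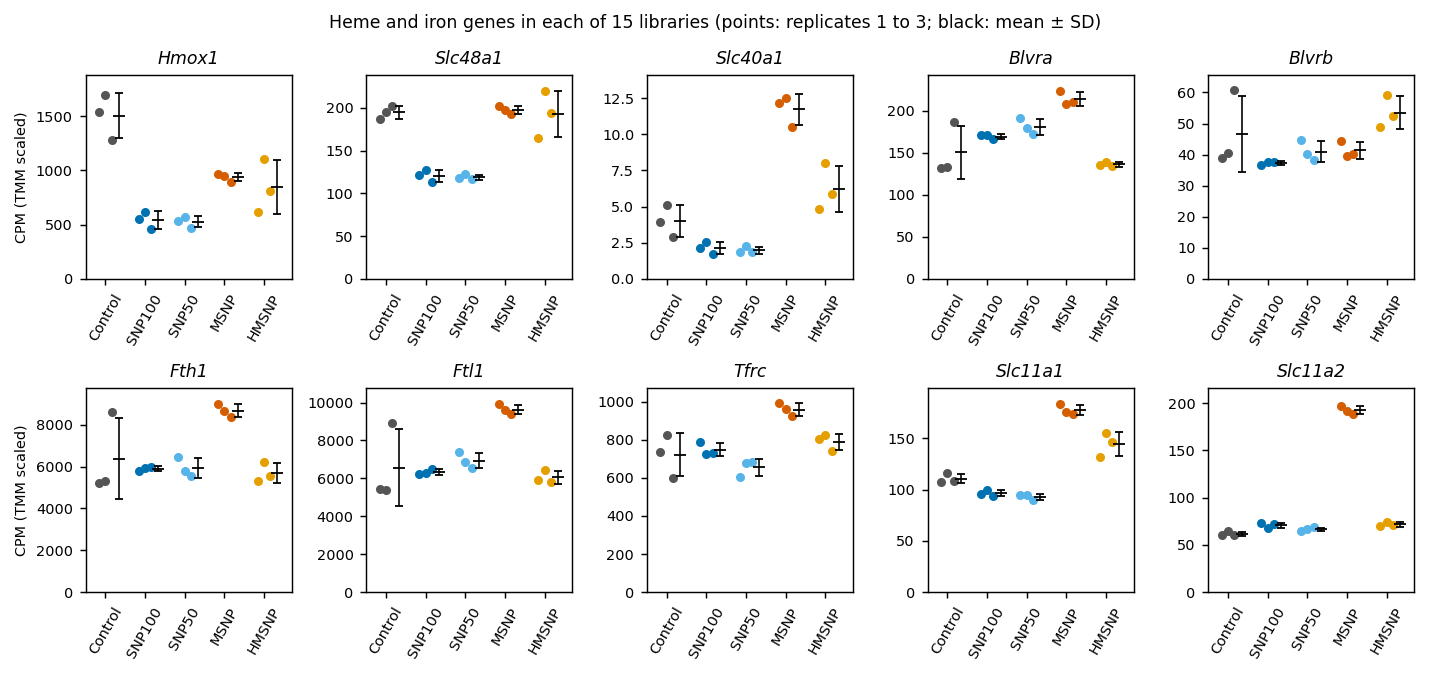
CPM after TMM scaling (vertical axes, each from 0) of the 10 genes in the 5 groups (horizontal axes); coloured points are replicates 1 to 3 and black marks the mean ± SD (n = 3). Hmox1 lies below every control library in all 4 treated groups, Slc48a1 only in the nonporous groups, and Slc11a2 and Slc40a1 are highest in the MSNP libraries.

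Neither biliverdin reductase was called lower against the controls. Blvra (chr2:126912556-126939017, plus strand) held 132, 133 and 187 CPM in the controls, the last of them in replicate 3. The MSNP libraries held 224, 208 and 211 CPM, above every control, with a log2 fold change of 0.51 ± 0.11 (SE) and of 0.71 without Control replicate 3. With SNP100, SNP50 and HMSNP the libraries overlapped the controls, at log2 fold changes of 0.17, 0.27 and -0.14. These were 0.35, 0.45 and 0.04 without Control replicate 3, and the first 2 were then called. The window at the Blvra start held the antioxidant response element core on the reverse strand, 39 bases upstream (chr2:126912516-126912548, GRCm39, plus strand as written, match in capitals), the other promoter match among the members.
Blvra element: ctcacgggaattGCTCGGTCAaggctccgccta
Blvrb (chr7:27147275-27165569, plus strand), which reduces biliverdin and also flavins, was called in none of the comparisons by the main test. Its controls held 38.8, 40.6 and 60.7 CPM, and the means of the treated groups lay between 37.2 CPM with SNP100 and 53.5 CPM with HMSNP. The log2 fold changes were -0.33 with SNP100, -0.19 with SNP50, -0.18 with MSNP and 0.20 with HMSNP, and -0.10, 0.04, 0.07 and 0.43 without Control replicate 3, when the HMSNP value was called.

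The ratio of Blvrb to Blvra counts within a library does not depend on scaling. It was 0.308 ± 0.015 (SD, n = 3) in the controls, 0.220 with SNP100, 0.226 with SNP50, 0.193 with MSNP and 0.392 with HMSNP. All HMSNP libraries, 0.362 to 0.425, lay above all control libraries, 0.294 to 0.324, and every library of the other 3 groups lay below them. Control replicate 3 had the highest control ratio, 0.324.

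Ferroportin, Slc40a1 (chr1:45947211-45965683, minus strand), was the least abundant of the 10 genes per kilobase of exon in every group and was called higher with MSNP and lower with SNP50. The controls held 3.96, 5.12 and 2.92 CPM, with 112 to 177 counts a library. The MSNP libraries held 12.2, 12.5 and 10.5 CPM, a log2 fold change of 1.56 ± 0.20 (SE), with every library above every control. The SNP100 libraries held 2.16, 2.53 and 1.72 CPM and the SNP50 libraries 1.86, 2.27 and 1.82 CPM, below every control, with 53.6% and 49.9% of the control level. The SNP100 value, a log2 fold change of -0.90 ± 0.22, was not called by the main test. It was called by DESeq2, with a replicate block and with an offset for gene length. Without Control replicate 3 it was -1.09 and called. The MSNP value was then 1.38. The SNP50 call was kept in 3 of the 15 fits that left out 1 library, those without HMSNP replicate 1, HMSNP replicate 2 or Control replicate 3. It was lost without any 1 of the other 12 libraries. The log2 fold change ran from -1.19 without Control replicate 3 to -0.78 without Control replicate 2. In 8 other settings the SNP50 call was kept in 6. It was lost with another scaling and in the fit to only the 6 libraries compared. The HMSNP libraries, at 4.85, 7.98 and 5.87 CPM, overlapped the controls with a log2 fold change of 0.65 ± 0.21, not called by the main test. The HMSNP value was 0.88 and called without Control replicate 2, and was also called by DESeq2 and with a replicate block.

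The ferritin chains were the most abundant of the 10. Per kilobase of summed exon the control means were 4898 CPM for Ftl1 and 1812 CPM for Fth1, then 856 for Hmox1, 102 for Tfrc, 66.6 for Slc48a1, 43.5 for Blvra, 27.7 for Slc11a1, 16.1 for Blvrb, 5.60 for Slc11a2 and 0.424 for Slc40a1. The libraries of neighbours in this order did not overlap. The summed exon covers all annotated transcripts, so that the level of a gene with long rare exons is understated.

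Fth1 (chr19:9957911-9962462, plus strand) held 5217, 5301 and 8622 CPM in the controls, of which only replicate 3 reached the MSNP range. The MSNP libraries held 8984, 8655 and 8390 CPM, a log2 fold change of 0.44 ± 0.15 (SE), overlapping the controls through that replicate alone. It was 0.73 without Control replicate 3. The call was lost in 7 of the 15 fits that left out 1 library, those without SNP100 replicate 3 (0.44), SNP50 replicate 2 (0.44), MSNP replicate 1 (0.44), MSNP replicate 2 (0.46), HMSNP replicate 3 (0.44), Control replicate 1 (0.35) or Control replicate 2 (0.33). Ftl1 (chr7:45107367-45109308, minus strand) held 5417, 5376 and 8912 CPM in the controls, where replicate 3 again stood highest, and 9896, 9594 and 9402 CPM with MSNP. Its log2 fold change was 0.55 ± 0.14, all MSNP libraries lay above all controls, and the value was 0.84 without Control replicate 3. With SNP100, SNP50 and HMSNP the Fth1 log2 fold changes were -0.11, -0.10 and -0.17 and those of Ftl1 -0.05, 0.08 and -0.11. All 6 were above 0 without Control replicate 3, between 0.11 and 0.36. The Ftl1 values were then called higher with SNP100, SNP50 and HMSNP, and the Fth1 values with none of them.

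Ferritin has retrocopies that can share reads with it. Ftl1-ps1, annotated as protein-coding, held 27.6 to 51.4 CPM, and Fth1-ps held 1.47 to 3.97 CPM. The other 4 copies reached at most 1.24 CPM. How the counting treated reads that map to several places is not given in the sources used here. The ratio of Fth1 to Ftl1 counts was 0.972 ± 0.012 (SD, n = 3) in the controls, where replicate 3 did not stand apart, and lower in the means of all treated groups: 0.931 with SNP100, 0.856 with SNP50, 0.901 with MSNP and 0.936 with HMSNP. Every library of the treated groups, at most 0.961, lay below every control, at least 0.963, although the gap to the HMSNP libraries was narrow.

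**Figure D3:**
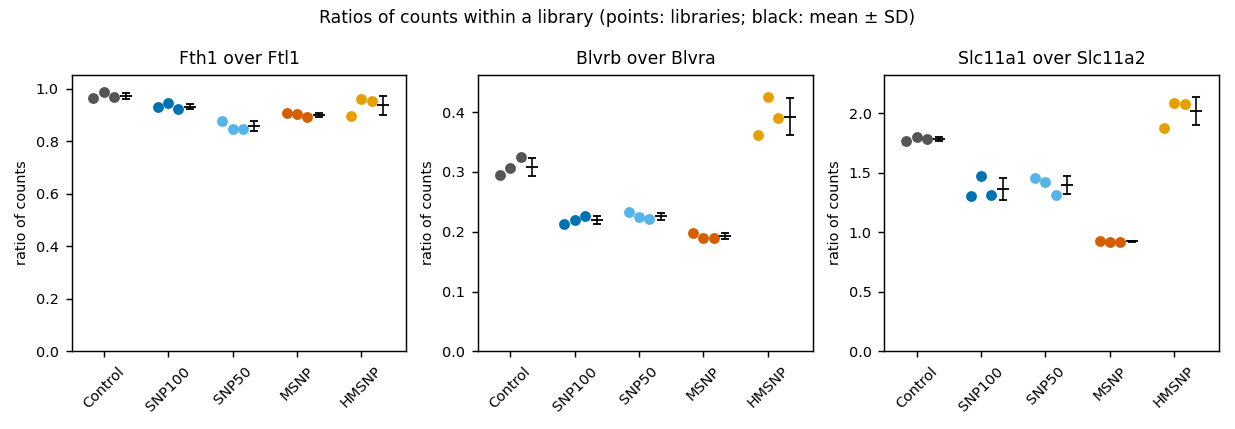
Ratio of counts of 2 genes within a library (vertical axes, from 0) for the 5 groups (horizontal axes); points are libraries and black marks the mean ± SD (n = 3). The ratio of Slc11a1 to Slc11a2 is lowest in the MSNP libraries, at 0.923 ± 0.007, and the ratio of Blvrb to Blvra is highest in the HMSNP libraries.

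Ferritin, ferroportin and the transferrin receptor are textbook targets of the iron regulatory proteins, which bind a hairpin called the iron-responsive element. In the 5′ untranslated region it blocks translation when iron is low, and in the 3′ untranslated region it protects the transcript from decay. The hairpins are shown because they set a layer of control that RNA counts measure only in part: translation was not measured. Transcripts were searched for an unpaired C, 5 paired bases, a loop CAGTGN whose last base is not G, and 5 paired bases, with G-U pairs allowed. Such a hairpin stood in the 5′ untranslated region of 36 of 21026 genes (0.171%), 3 of the 10 members among them, and in the 3′ untranslated region of 185 of 21618 genes (0.856%), 1 member among them. The sequences below are written as DNA on the strand of the gene, with the loop in capitals.
Fth1 5′ hairpin, chr19:9960096-9960124: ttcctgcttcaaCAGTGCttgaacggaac
Ftl1 5′ hairpin, chr7:45109203-45109231: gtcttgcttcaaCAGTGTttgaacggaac
Slc40a1 5′ hairpin, chr1:45964625-45964653: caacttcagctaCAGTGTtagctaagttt
Tfrc 3′ hairpin, chr16:32450037-32450065: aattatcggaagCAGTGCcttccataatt
Tfrc 3′ hairpin, chr16:32450416-32450444: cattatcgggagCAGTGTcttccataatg
Tfrc 3′ hairpin, chr16:32450481-32450509: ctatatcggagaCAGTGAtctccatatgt
Tfrc 3′ hairpin, chr16:32450528-32450556: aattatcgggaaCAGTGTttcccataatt
Slc11a2 had no match under these letters, which says only that this pattern was not found. Hairpins with other loop letters would be missed in every gene, Tfrc included.

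Tfrc (chr16:32427556-32451612, plus strand), in whose 3′ untranslated region the search found 4 hairpins, was called higher with MSNP. The controls held 736, 828 and 601 CPM and the MSNP libraries 992, 960 and 925 CPM, all above every control, a log2 fold change of 0.41 ± 0.10 (SE). The SNP100, SNP50 and HMSNP libraries overlapped the controls, with log2 fold changes of 0.05, -0.14 and 0.13. Without Control replicate 3 the MSNP value was 0.30, the SNP100 value -0.06 and the SNP50 value -0.26, the last then called lower. In the MSNP libraries the receptor for iron uptake, both ferritin chains and the iron exporter were called higher than in the controls, as were 11.8% of all genes tested. For Fth1 the libraries overlapped. In a fit to only the 6 libraries of this comparison Slc40a1 kept its call, and Tfrc, Fth1 and Ftl1 lost theirs.

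Both genes of divalent metal carriers were called higher with MSNP. Slc11a2 (chr15:100285776-100322953, minus strand) held 60.7, 64.4 and 60.8 CPM in the controls and 197, 192 and 188 CPM with MSNP, 3.10-fold the control level, a log2 fold change of 1.63 ± 0.06 (SE). In the other treated groups it lay slightly above every control, at 67.8 to 73.0 CPM with SNP100, 65.1 to 68.5 CPM with SNP50 and 70.1 to 74.6 CPM with HMSNP. None of these was called by the main test, with log2 fold changes of 0.19, 0.10 and 0.21. DESeq2 called the SNP100 and HMSNP values higher, and edgeR called the HMSNP value without Control replicate 2 (0.26), without Control replicate 3 (0.20) or with a stricter filter on low counts. The MSNP value was 1.63 without Control replicate 3.

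Slc11a1 (chr1:74414303-74425448, plus strand) is the gene of the phagosomal carrier of macrophages. Only its RNA was measured: metal transport, and whether this line makes a working carrier, were not examined. Slc11a1 held 107, 116 and 109 CPM in the controls. It held 183, 176 and 173 CPM with MSNP and 132, 155 and 147 CPM with HMSNP, all above every control, with log2 fold changes of 0.68 ± 0.07 and 0.39 ± 0.07 (SE). The SNP100 libraries, 94.2 to 99.7 CPM, and the SNP50 libraries, with a mean of 93.1 ± 2.77 CPM (SD, n = 3), lay below every control. Their log2 fold changes were -0.20 ± 0.07 and -0.25 ± 0.07, neither of them called by the main test. Both were called lower without Control replicate 3, and DESeq2 called the SNP50 value lower. The ratio of Slc11a1 to Slc11a2 counts was 1.78 ± 0.016 (SD, n = 3) in the controls, 1.36 with SNP100, 1.40 with SNP50, 0.923 with MSNP and 2.01 with HMSNP. No library of a treated group reached into the control range of 1.77 to 1.80.

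MSNP and HMSNP, both mesoporous and dosed alike, differ in the hollow core of HMSNP and, by the study's description, also in density and surface composition. Slc11a2 was lower with HMSNP than with MSNP, at 37.3% of its level, a log2 difference of -1.42 ± 0.06 (SE). Slc40a1 differed by -0.91 ± 0.20, Ftl1 by -0.67 ± 0.14, Blvra by -0.65 ± 0.11, Fth1 by -0.61 ± 0.15 and Slc11a1 by -0.30 ± 0.07. In all 6 every HMSNP library lay below every MSNP library, and all 6 were called. Tfrc was also below throughout, at -0.28 ± 0.10, and Blvrb above throughout, at 0.37 ± 0.14, without being called by the main test. Blvrb was called higher by DESeq2, with other filters on low counts, with the length offset and without Control replicate 1, 2 or 3. Tfrc was called lower with the length offset, with a replicate block and without Control replicate 2 or 3. Both were called in the fit to only the 6 libraries of these groups. Libraries lay entirely below in 23.7% of all genes tested and entirely above in 21.6%. For Hmox1 the difference was -0.15 with a 95% interval of -0.52 to 0.21, and for Slc48a1 -0.04 with an interval of -0.22 to 0.15. For these 2 genes the libraries of the groups overlapped, and differences up to the ends of these intervals remained possible.

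Of the 10 members, 2 were called lower and none higher with SNP100, where 0.403% and 0.509% of all genes tested were. With SNP50, 3 were called lower and none higher, against 0.958% and 0.454%. With MSNP, 7 were called higher against 11.8% and 1 lower against 11%. With HMSNP, 1 was called higher against 2.46% and 1 lower against 2.7%. Between HMSNP and MSNP, 6 were called lower in HMSNP against 11% and none higher against 9.22%. Since the members were chosen with these results known, nothing is read from the counts. Their median log2 fold changes were -0.15, -0.16, 0.48 and 0.06 against the controls and -0.45 for HMSNP against MSNP, where the medians of all genes tested were -0.02, 0.00, -0.05, -0.04 and 0.00. Leaving out Control replicate 3 gave 6 members called with SNP100 and 7 with SNP50, when 5.16% and 18.9% of all genes were called. Blvra and Ftl1 were then called higher and Slc11a1 lower in both. For HMSNP the count of 2 became 5 without Control replicate 3, 4 without Control replicate 2 and 1 without HMSNP replicate 1 or HMSNP replicate 3. The shares of all genes called in either direction were then 8.66%, 25.2%, 2.53% and 2.93%.

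**Figure D4:**
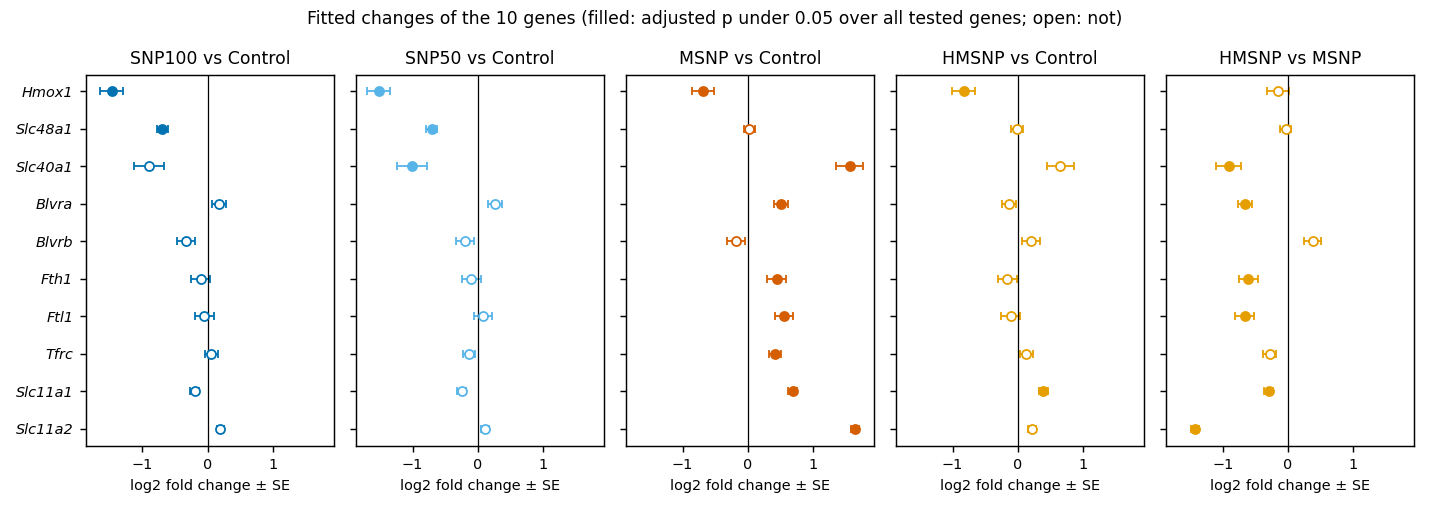
Fitted log2 fold change (horizontal axes) with its SE (bars) of the 10 genes (rows) in the 5 comparisons (panels), from 3 libraries a group; filled points had an adjusted p under 0.05 over the 19839 genes tested and open points did not. Hmox1 is the only gene left of 0 and filled in all 4 comparisons with the controls, and Slc11a2 and Slc40a1 lie farthest to the right with MSNP.

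Around the members, 82 other genes of heme and iron handling were listed by function, and 70 had enough counts to be tested. These lists too were made with earlier results of these data known, and many of the genes named had the largest changes called. Their adjusted p-values are therefore descriptive and no independent support. With MSNP, 15 of the 70 were higher and 6 lower, where 11.8% and 11% of all genes tested were. The 70 were better expressed than that background: 63 had a mean of at least 1 CPM, as had 11540 of the 19839 tested. With a stricter filter on low counts, 33.1% of all genes were called with MSNP in either direction. The shares used here and below thus understate those of well-expressed genes, and neither count is read as a result about these genes. In heme breakdown and transport, 2 of 11 tested rose and 1 fell, which is near the shares of all genes, 11.8% and 11%. Por, the reductase that feeds electrons to heme oxygenase, rose by 1.48 ± 0.06 on the log2 scale (SE, edgeR adjusted p 2.31e-10), with means of 220.5 CPM in the controls and 614 CPM with MSNP. Flvcr1, the heme exporter of the plasma membrane, rose from 44.5 to 118 CPM (1.40 ± 0.12, edgeR adjusted p 2.49e-07). Slc46a1, a folate carrier that also takes up heme, fell by 0.92 ± 0.10 on the log2 scale from 10.3 to 5.41 CPM (edgeR adjusted p 5.26e-06). Hmox2, the constitutive heme oxygenase, held 57.8 to 90.1 CPM in the controls and 75.5 to 77.1 CPM with MSNP.

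In iron transport and storage, 5 of 17 tested rose with MSNP and 3 fell, beside 11.8% and 11% of all genes. Ncoa4, the receptor that delivers ferritin to lysosomes, rose by 1.25 ± 0.15 on the log2 scale (SE, edgeR adjusted p 1.77e-05) and reached a mean of 114 CPM, a value of 1.04 without Control replicate 3. Slc39a14, an importer of zinc and iron, fell by 0.93 ± 0.13 on the log2 scale from 115 to 60.4 CPM (edgeR adjusted p 6.25e-05). Mcoln1, a lysosomal cation channel, rose from 38.1 to 89.2 CPM (1.23 ± 0.09, edgeR adjusted p 9.09e-08), and Hfe, a partner of the transferrin receptor, fell by 0.59 on the log2 scale (edgeR adjusted p 1.73e-05). Steap3, a ferrireductase of endosomes that was named here after its values were seen, rose from 31.2 to 66.4 CPM (edgeR adjusted p 2.29e-08). Hephl1 also counts among the 5, but held no counts in the controls and a mean of 0.159 CPM with MSNP, so no fold is given.

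Of the 3 iron sensors, Aco1, the iron regulatory protein that doubles as cytosolic aconitase, rose with MSNP from 66.3 to 98.5 CPM (log2 fold change 0.57 ± 0.09, edgeR adjusted p 0.000265). Ireb2, the other iron regulatory protein, held 82.8 CPM in the controls and 89.8 CPM with MSNP on average, and Fbxl5, which marks it for degradation, 36.9 and 38.6 CPM. Of the 10 tested regulators of Hmox1 and heme-responsive factors, 3 rose and 1 fell, beside 11.8% and 11% of all genes. Nfe2l2, which encodes the activator NRF2, rose from 191 to 353 CPM (log2 fold change 0.89 ± 0.05 SE, edgeR adjusted p 4.96e-09). Maff, a small MAF partner, rose from 3.95 to 8.65 CPM (edgeR adjusted p 1.67e-06), and Nr1d1, a nuclear receptor that binds heme, fell by 1.34 ± 0.11 on the log2 scale (edgeR adjusted p 2.78e-07). Keap1, the adaptor that keeps NRF2 low, held 95.1 CPM in the controls and 97.5 CPM with MSNP. Bach1, the heme-sensing repressor of Hmox1, held 23.1 to 53.3 CPM in the controls, the lowest in replicate 3, and 55.4 to 59.5 CPM with MSNP. The MSNP libraries thus held less Hmox1 RNA and more Nfe2l2 RNA than the controls.

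In heme synthesis, 2 of 12 rose and none fell, and in iron-sulfur cluster assembly 2 of 17 rose and 1 fell, against the same 11.8% and 11% of all genes. With HMSNP, 2 of the 70 other genes rose and 2 fell, close to the 2.46% and 2.7% of all genes, so that the count is no result about these genes. Por rose to 271 CPM (log2 fold change 0.30 ± 0.06 SE, edgeR adjusted p 0.011) and Nfe2l2 to 224 CPM (0.23 ± 0.05, edgeR adjusted p 0.017). Slc46a1 fell by 0.60 ± 0.10 on the log2 scale (edgeR adjusted p 0.002) and Abcb6, a porphyrin transporter, by 0.39 ± 0.10 (edgeR adjusted p 0.035). The HMSNP count of 4 became 25 without Control replicate 2, 10 without Control replicate 3, 2 without HMSNP replicate 3 and 1 without HMSNP replicate 2. The shares of all genes called in either direction moved as well, to 25.2%, 8.66%, 2.93% and 2.51% in these fits. Por had a log2 fold change of 0.27 and Nfe2l2 of 0.21 without HMSNP replicate 2, neither past the threshold.

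**Figure D5:**
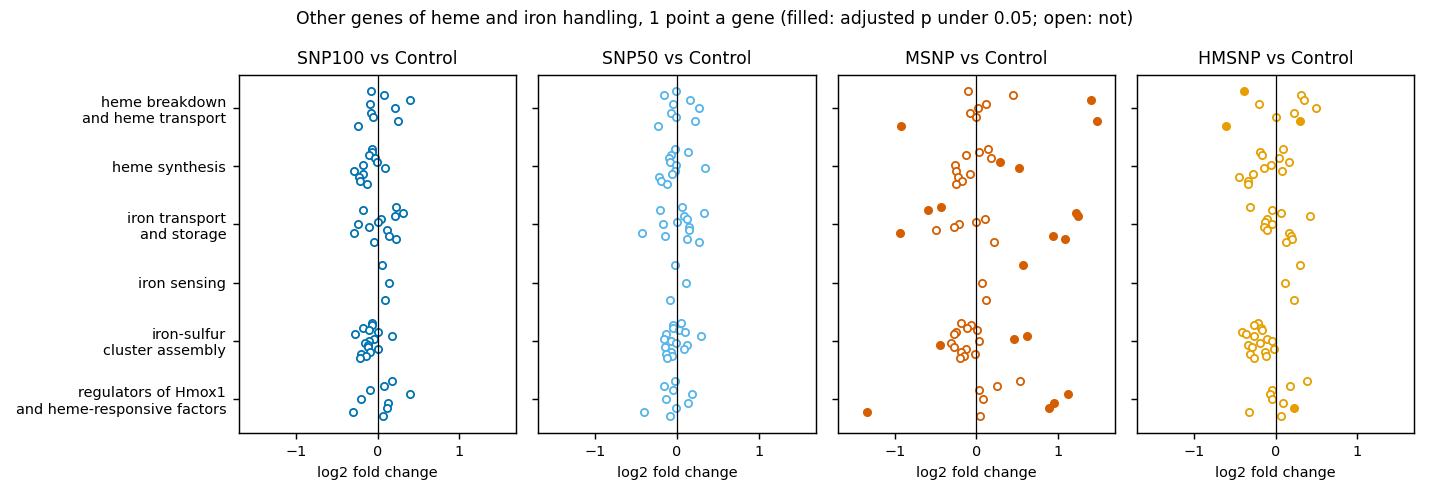
Fitted log2 fold change against the controls (horizontal axes) of 63 of the 70 tested genes outside the members, those with a mean of at least 1 CPM, by functional list (rows) and particle (panels); filled points had an edgeR adjusted p under 0.05. The MSNP panel has 20 filled points, the HMSNP panel 4 and the nonporous panels none.

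With SNP100 and SNP50, none of the 70 was called by edgeR's quasi-likelihood test. An unadjusted p under 0.05 was found for 12 and 8. DESeq2 called 4 and 3, beside 3.66% and 5.05% of all genes to which it gave an adjusted p. In fits without Control replicate 3 edgeR called 7 and 21, beside 5.16% and 18.9% of all genes. Without Control replicate 2 it called 2 with SNP100, beside 1.65%. Between HMSNP and MSNP, 5 of the 70 were higher and 13 lower with HMSNP, beside 9.22% and 11% of all genes. Without Control replicate 3, 34 were called, beside 33.9% of all genes in either direction. Slc39a14 was higher with HMSNP by 1.09 ± 0.13 (SE, edgeR adjusted p 1.42e-05), Nr1d1 by 1.02 ± 0.11 (edgeR adjusted p 5.74e-06) and Hfe by 0.55 ± 0.07 (edgeR adjusted p 4.06e-05). Maff, Por and Mcoln1 had the largest decreases among genes with a mean of at least 1 CPM, with log2 differences of -1.20, -1.18 and -1.17 (edgeR adjusted p 9.44e-07, 2.14e-09 and 1.69e-07). Flvcr1, Ncoa4 and Nfe2l2 were lower with HMSNP as well, by -1.06, -0.83 and -0.66.

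Genes whose pattern over the 15 libraries lay near that of Hmox1 were found among 10457 protein-coding genes by the root-mean-square difference of centred log2 CPM. Among the nearest were Jag1, a Notch ligand (0.374), Gclm, a subunit of the enzyme that makes the glutathione precursor (0.384), Timp2, a metalloproteinase inhibitor (0.411), and Batf2, a leucine zipper factor (0.413). Hmox1 itself varied by 0.593 about its own mean on the same measure. Gclm held 338 to 427 CPM in the controls, 211 to 247 CPM with SNP100, 212 to 233 CPM with SNP50, 226 to 251 CPM with MSNP and 316 to 429 CPM with HMSNP. Gclm thus lay below every control in 3 of the 4 treated groups and overlapped the controls with HMSNP. The log2 fold changes of Jag1, Gclm, Timp2 and Batf2 were -0.004, -0.05, -0.09 and -0.04 with HMSNP, where that of Hmox1 was -0.83. With MSNP they were -0.34, -0.65, 0.15 and -0.35, where that of Hmox1 was -0.68. With both nonporous particles all of them were below 0.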

How the data were processed

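Per the labels and the paper's methods, the authors isolated poly(A) RNA from RAW 264.7 cultures, prepared directional libraries and mapped read pairs to GRCm39. The submitters' processing notes name STAR 2.7.9a, cutadapt 1.16 and featureCounts 1.6.3. The deposited table holds raw counts per gene and library, not normalized. Counting strand and the handling of reads with several positions are not given in the sources used here. Symbols, positions and exon lengths came from GENCODE vM39.

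Genes with at least 10 summed counts were kept. The quasi-likelihood test of edgeR 4.0.16 in R 4.3.3 was fitted to all 15 libraries with TMM scaling, group as the only term and Benjamini-Hochberg adjustment over all genes tested (threshold 0.05). The SE is the absolute log2 fold change over the root of F. The scripts were tested on simulated data. Alternatives were DESeq2 1.42.0, another scaling, filter, offset or sample set, a replicate block and each library left out. The labels do not say that replicates were separate cultures, so p-values measure the spread between these libraries, which may be technical. Depth gave at least 55 counts for each member in each library.

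The members and lists were chosen with earlier results of these data known. Named besides the members were 9 fixed pathway genes and, per comparison, the 3 largest increases and decreases called at 1 CPM or more, and the 5 genes nearest Hmox1, of which 1 is not reported here. Promoters and hairpins were read from the GRCm39 sequence.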

Additional observations from a re-analysis of the deposited data

How the results depend on the processing

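The member counts of calls were 2, 3, 8, 2 and 6 for SNP100, SNP50, MSNP and HMSNP against the controls and HMSNP against MSNP, and those of the other genes 0, 0, 21, 4 and 18. DESeq2 called 4 members with SNP100 and 4 with HMSNP, and 4, 3 and 13 other genes with SNP100, SNP50 and HMSNP. Of all genes to which it gave an adjusted p, it called 3.66%, 5.05% and 15.1% with these particles. Fits to only the 6 libraries of a comparison gave by edgeR 0, 0 and 0 members for SNP100, SNP50 and HMSNP, with 3, 4 and 3 at an unadjusted p under 0.05. They gave 4 members for MSNP. Of all genes, these fits called 0%, 0.00574% and 0.439% for SNP100, SNP50 and HMSNP and 13% for MSNP. They gave 0 other genes for HMSNP, with 7 at an unadjusted p under 0.05. For HMSNP against MSNP they gave 39 other genes, beside 40.9% of all genes. Filtering by expression per group called 1 other gene with SNP100 and 1 with SNP50, beside 1.85% and 2.86% of all genes. The length offset called 4, 3 and 8 other genes with SNP100, SNP50 and HMSNP, beside 1.49%, 2.53% and 7.41% of all genes. With Control replicate 3 left out as well, it called 6, 8 and 5 members and 10, 21 and 14 other genes with SNP100, SNP50 and HMSNP. Between HMSNP and MSNP it then called 37 other genes. The shares of all genes were 5.92%, 17.8% and 10.3% against the controls and 35.2% between HMSNP and MSNP. The remaining counts stayed within 1.5 times the main one. No result reversed its sign among those called.

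With each library left out in turn, members called ran from 2 to 6 for SNP100, 2 to 7 for SNP50, 7 to 8 for MSNP, 1 to 5 for HMSNP and 6 to 8 for HMSNP against MSNP. Other genes called ran from 0 to 7, 0 to 21, 18 to 31, 1 to 25 and 16 to 34. Among other genes, the upper ends came without Control replicate 3 for SNP100, SNP50 and HMSNP against MSNP, without Control replicate 2 for HMSNP, and without either for MSNP. Of all genes, 5.16%, 18.9%, 33.9% and 25.2% were called in these fits in that order. For MSNP the shares were 33.2% without Control replicate 2 and 29.5% without Control replicate 3. With 2 controls left, the spread rests on the other groups. Abcb6 with HMSNP lost its call in 9 settings.

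Deviations of same-numbered libraries correlated between -0.362 and 0.469. With 3 libraries a group, this cannot decide whether libraries were paired by replicate number. With the number as a replicate block, 3, 3, 8, 3 and 7 members and 0, 0, 22, 3 and 18 other genes were called. Of all genes, 0.716%, 0.907%, 22.1%, 4.46% and 19.2% were called in that fit.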

Other observations

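The HMSNP libraries were the least alike of the treated groups for Hmox1, with a range of 0.85 on the log2 scale. In 7 of the 10 members HMSNP replicate 2 was the highest and HMSNP replicate 1 the lowest of the 3, as it was in 17.7% of 11540 genes with a mean of at least 1 CPM. The members are not independent of each other, and no test was made.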
